A study of Mus musculus with 9 samples.

Results

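The mitochondrial fusion and fission machinery was examined in midbrain tissue that contained the substantia nigra pars compacta (SNpc), from mice with and without DJ-1. The 10 genes were a list drawn up by function, with earlier results of these data known, and the rule used no measured value. They were the fusion GTPases Mfn1, Mfn2 and Opa1, the fission genes Dnm1l, Fis1, Mff, Mief1 and Mief2, and the 2 proteases that cut Opa1, Oma1 and Yme1l1. All 10 were among the 26602 genes with a count in any library, and all 10 passed the filter on low counts that left 18127 genes for testing.

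Mitochondria join and divide continually. The mitofusins Mfn1 and Mfn2 tether and merge the outer membranes of neighbouring mitochondria, and Opa1 merges the inner membranes and holds the cristae together. The dynamin-related GTPase Dnm1l (also called Drp1) is drawn from the cytosol by receptors on the outer membrane, assembles into rings and pinches the organelle apart. In neurons this balance sets the size of the mitochondria that are carried into axons and dendrites, and DJ-1 (Park7), a redox-sensitive protein mutated in some families with Parkinson's disease, has been studied in relation to mitochondrial quality in dopaminergic neurons.

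The series compared 4 DJ-1+/+ mice with 5 DJ-1-/- mice, with 1 library for each animal and no treatment. The DJ-1-/- mice were homozygous for a germline targeted Park7 allele that carries a Neo cassette, so every cell type carried that allele. The RNA data do not measure DJ-1 protein. Per the study's methods the line had been crossed back to C57BL/6, the wild-type mice were littermates bred from heterozygous parents, and the animals were 3 to 4 months old. The labels did not give the sex of the animals. Libraries were made with a 3' kit (Lexogen QuantSeq FWD), which reads each transcript near its poly(A) end. Reads had been collapsed by unique molecular identifiers (UMIs), so a count stands for captured RNA rather than for reads. Molecules that share a UMI at one position are merged, so high counts can be understated. Counts were not divided by transcript length. Levels are therefore given as counts per 1000000 UMIs of the library (cpm), a scale that does not rest on transcript length.

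Wild-type libraries held 841974 to 886085 UMI counts and knockout libraries 967751 to 1098125, so that a count of 0 allowed up to 3.56 cpm in the shallowest library. Park7 itself had 105 to 132 counts in DJ-1+/+ and 14 to 29 in DJ-1-/- libraries, with a log2 fold change of -2.71 (SE 0.15, edgeR quasi-likelihood test, adjusted p = 7.4e-08), which matched the labels. Xist and Ddx3y counts fell into 2 patterns that crossed the genotypes: DJ-1-/- replicate 5 and DJ-1+/+ replicates 1 and 4 had 0 to 2 Xist counts and 113 to 152 Ddx3y counts, and the other 6 libraries had 146 to 193 Xist counts. Summed neuron markers (8 genes, none at 0) covered nearly the same range in DJ-1+/+ (2254 to 2391 cpm) and DJ-1-/- libraries (2246 to 2377 cpm). Dissection differed more: 8 choroid plexus markers summed to 804 cpm in DJ-1+/+ replicate 4 and to at most 380 cpm elsewhere. The 8 cerebellar markers summed to 1321 cpm in DJ-1+/+ replicate 1 and to at most 625.2 cpm elsewhere. All 8 choroid plexus markers had a log2 fold change below 0 (median -1.63), and 6 of 8 passed an unadjusted p under 0.05 in edgeR. All 8 cerebellar markers were also below 0 (median -0.91), and 4 of 8 passed, beside 1.27% of all genes in this direction. The 10 markers of dopaminergic neurons, which include Th and Slc6a3, summed to 538 to 980 cpm in wild-type libraries and 761 to 1049 cpm in knockouts. All 10 of these markers had a log2 fold change above 0 (median 0.34), and 3 of 10 passed an unadjusted p under 0.05 in edgeR, upward, beside 1.55% of all genes. The part of these shifts in the values of the 10 fusion and fission genes was not tested. In bulk tissue, fewer cells of a type and less RNA for each cell cannot be told apart.

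No member passed the test between the genotypes. At an adjusted p under 0.05 in the edgeR quasi-likelihood fit, 0 of 10 passed, beside 0.00552% of all genes tested (1 gene, Park7). At an unadjusted p under 0.05 the count was again 0 of 10, beside 2.82% of all genes, and DESeq2 also gave 0 of 10 at both thresholds. The log2 fold changes, DJ-1-/- over DJ-1+/+, ran from -0.17 for Mief1 to 0.22 for Mief2, with 4 genes above and 6 below 0. Their median was -0.02, beside 0.01 over all genes tested. All 10 adjusted p-values were 1.0.

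**Figure D1:**
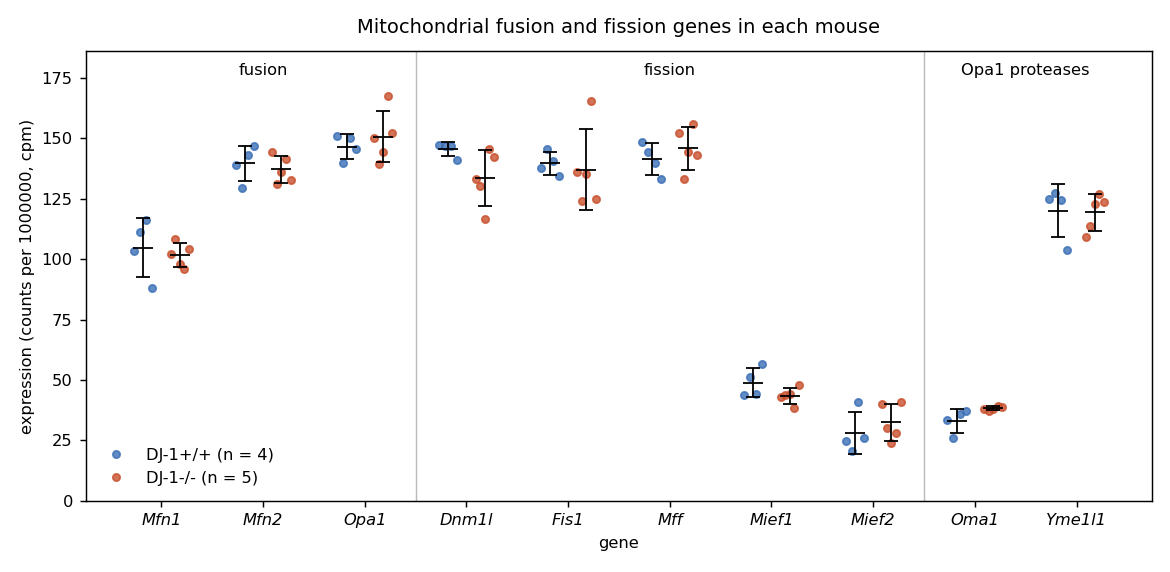
Expression in cpm (vertical axis, linear, from 0) of the 10 fusion and fission genes, in order of role along the horizontal axis, in 4 DJ-1+/+ and 5 DJ-1-/- mice. Each point is 1 mouse, the horizontal line is the mean and the error bar is the SD. The genotypes overlap for 9 of the 10 genes, the Oma1 groups meet at an edge of 37.2 against 37.3 cpm, and Mief1, Mief2 and Oma1 lie below the other 7 genes.

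In UMI counts these transcripts lay at 3 tiers of abundance by their DJ-1+/+ means. Opa1, Dnm1l, Mff, Mfn2 and Fis1 lay between a mean of 140 and 147 cpm in DJ-1+/+ mice, Yme1l1 and Mfn1 followed at 120 and 105 cpm, and Mief1, Oma1 and Mief2 were the lowest at 48.9, 33.2 and 28.02 cpm. The first 5 overlapped one another across the DJ-1+/+ libraries and cannot be ranked, and all 5 lay in the range of 100 to 150 counts that held many of the genes tested. In DJ-1-/- mice Opa1 was again first (151 cpm) and Mief2 last (32.5 cpm), and the order was the same except that Dnm1l stood below Fis1, at 134 cpm. The upper tiers overlapped there: the lowest DJ-1-/- library had 117 cpm for Dnm1l, and the highest had 127 cpm for Yme1l1. The gap between Mfn1 and Mief1 was open in each genotype: the lowest Mfn1 library had 88.0 cpm and the highest Mief1 library 56.4 cpm. By their mean over the 9 libraries the members lay between the 47th percentile of all genes tested (Mief2, 47.1) and the 93rd (Opa1, 93.5). The largest count of any gene was 1084 to 1257 in DJ-1+/+ and 1040 to 1359 in DJ-1-/- libraries. Collapsing by UMI can understate high counts, and its part in the tiers and percentiles was not tested.

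Mfn1 (ENSMUSG00000027668, GRCm38, plus strand, chr3:32529465-32579239) encodes 1 of the 2 mitofusins and is the more efficient tether of the pair. It had 87, 98, 100 and 78 counts in DJ-1+/+ replicates 1 to 4 (103, 111, 116 and 88.0 cpm) and 102, 119, 95, 93 and 107 counts in DJ-1-/- replicates 1 to 5 (102, 108, 98.0, 96.1 and 104 cpm). The highest and the lowest library were both DJ-1+/+, so all DJ-1-/- values lay within the DJ-1+/+ range. Wild-type mice averaged 105 ± 12.4 cpm (SD, n = 4), and knockouts averaged 102 ± 4.9 cpm (SD, n = 5). The log2 fold change was -0.04 (SE 0.09, 95% interval -0.23 to 0.15), with p = 0.696 before adjustment in edgeR and p = 0.651 in the exact two-sided permutation test of the cpm.

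Mfn2 (ENSMUSG00000029020, minus strand, chr4:147873599-147904704), the mitofusin that also sits at contacts between mitochondria and the endoplasmic reticulum and is a target of the Parkinson's disease proteins PINK1 and Parkin, lies 2.99 Mb from Park7 on the same chromosome. Its counts were 117, 114, 123 and 130 in DJ-1+/+ (139, 130, 143 and 147 cpm) and 144, 144, 132, 137 and 136 in DJ-1-/- libraries (144, 131, 136, 142 and 133 cpm). Again the DJ-1-/- mice fell inside the DJ-1+/+ range. Means were 140 ± 7.4 cpm (SD, n = 4) and 137 ± 5.6 cpm (SD, n = 5), and the log2 fold change was -0.03 (SE 0.07, 95% interval -0.18 to 0.13, edgeR p = 0.742, exact permutation p = 0.603).

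Opa1 (ENSMUSG00000038084, plus strand, chr16:29579334-29654884), the inner membrane GTPase, had the highest mean of the set. DJ-1+/+ libraries held 127, 123, 129 and 129 counts (151, 140, 150 and 146 cpm) and DJ-1-/- libraries 150, 153, 140, 162 and 156 counts (150, 139, 144, 167 and 152 cpm). The DJ-1-/- mice spread wider and included both the lowest and the highest value, in replicates 2 and 4. Means were 147 ± 5.1 cpm (SD, n = 4) and 151 ± 10.6 cpm (SD, n = 5), with a log2 fold change of 0.04 (SE 0.08, 95% interval -0.12 to 0.20, edgeR p = 0.654, exact permutation p = 0.571). As folds on the linear scale, the intervals of the 3 fusion genes lay between 0.85 and 1.15. The counts do not separate the long and short Opa1 protein forms, which arise by cleavage after translation.

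Dnm1l (ENSMUSG00000022789, minus strand, chr16:16312230-16358959), the GTPase that divides mitochondria, had the smallest edgeR p of the 10 genes. Its counts were 124, 129, 126 and 125 in DJ-1+/+ (147, 147, 147 and 141 cpm) and 133, 143, 113, 141 and 146 in DJ-1-/- libraries (133, 130, 117, 146 and 142 cpm). DJ-1+/+ replicates 1 to 3 lay above every DJ-1-/- mouse, DJ-1+/+ replicate 4 lay below DJ-1-/- replicates 4 and 5, and the lowest value was that of DJ-1-/- replicate 3. The mean was 145 ± 2.9 cpm (SD, n = 4) against 134 ± 11.4 cpm (SD, n = 5), and the log2 fold change was -0.12 (SE 0.08, 95% interval -0.29 to 0.05). Neither the edgeR test (p = 0.150) nor the exact permutation test (p = 0.0794) passed. Without DJ-1+/+ replicate 4, the library with the most choroid plexus RNA, the exact permutation p was 0.0357, the smallest that 3 against 5 allows. The difference was then -13.2 cpm, and the edgeR p was 0.157. With any other library left out the exact permutation p was 0.0571 to 0.179. Without DJ-1-/- replicate 3 the difference shrank to -7.55 cpm (exact permutation p = 0.143, edgeR p = 0.381). The part of choroid plexus tissue in the Dnm1l value was not tested.

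The Dnm1l receptors were measured in the same libraries. Mff (ENSMUSG00000026150, plus strand, chr1:82724890-82752394) encodes the main tail-anchored receptor on mitochondria and peroxisomes. It had 125, 127, 120 and 118 counts in DJ-1+/+ (148, 144, 140 and 133 cpm) and 152, 146, 140, 151 and 147 counts in DJ-1-/- libraries (152, 133, 144, 156 and 143 cpm), with the lowest and the 2 highest values in DJ-1-/- mice. Means were 141 ± 6.6 cpm (SD, n = 4) and 146 ± 8.9 cpm (SD, n = 5), and the log2 fold change was 0.04 (SE 0.07, 95% interval -0.12 to 0.20, edgeR p = 0.627, exact permutation p = 0.460).

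Fis1 (ENSMUSG00000019054, plus strand, chr5:136953275-136966234) encodes a small tail-anchored outer membrane adaptor tied to stress-induced fission. DJ-1+/+ libraries held 116, 128, 121 and 119 counts (138, 145, 141 and 134 cpm) and DJ-1-/- libraries 136, 136, 131, 160 and 128 counts (136, 124, 135, 165 and 125 cpm). DJ-1-/- replicate 4 was the highest of the 9, and DJ-1-/- replicates 2 and 5 were the lowest. The means were 140 ± 4.7 cpm (SD, n = 4) and 137 ± 16.8 cpm (SD, n = 5), with a log2 fold change of -0.03 (SE 0.09, 95% interval -0.22 to 0.16, edgeR p = 0.732, exact permutation p = 0.857).

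Mief1 (ENSMUSG00000022412, plus strand, chr15:80234018-80253371) and Mief2 (ENSMUSG00000018599, plus strand, chr11:60728398-60732951), also called MiD51 and MiD49, are paralogous receptors that recruit Dnm1l independently of Mff. Mief1 had 37, 45, 38 and 50 counts in DJ-1+/+ (43.9, 51.1, 44.2 and 56.4 cpm) and 43, 48, 43, 37 and 49 counts in DJ-1-/- libraries (43.0, 43.7, 44.4, 38.2 and 47.7 cpm). Mief2 had 21, 18, 35 and 23 counts in DJ-1+/+ (24.9, 20.5, 40.7 and 26.0 cpm) and 40, 33, 23, 27 and 42 counts in DJ-1-/- libraries (40.04, 30.1, 23.7, 27.9 and 40.9 cpm). The paralogs had opposite signs, and the genotypes overlapped for each: the 2 highest Mief1 libraries were DJ-1+/+ replicates 4 and 2, and the Mief2 value of DJ-1+/+ replicate 3 lay among the 3 highest. The Mief1 mean was 48.9 ± 6.0 cpm (SD, n = 4) against 43.4 ± 3.4 cpm (SD, n = 5), a log2 fold change of -0.17 (SE 0.14, 95% interval -0.48 to 0.13, edgeR p = 0.247, exact permutation p = 0.127). The Mief2 mean was 28.02 ± 8.8 cpm (SD, n = 4) against 32.5 ± 7.6 cpm (SD, n = 5), a log2 fold change of 0.22 (SE 0.24, 95% interval -0.28 to 0.72, edgeR p = 0.370, exact permutation p = 0.365). With 18 to 42 counts in each library, Mief2 had the widest interval of the set, and a fold anywhere from 0.82 to 1.64 was within it. Without DJ-1+/+ replicate 3 its log2 fold change was 0.45 and without DJ-1+/+ replicate 2 it was 0.09, and neither passed the edgeR test.

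**Figure D2:**
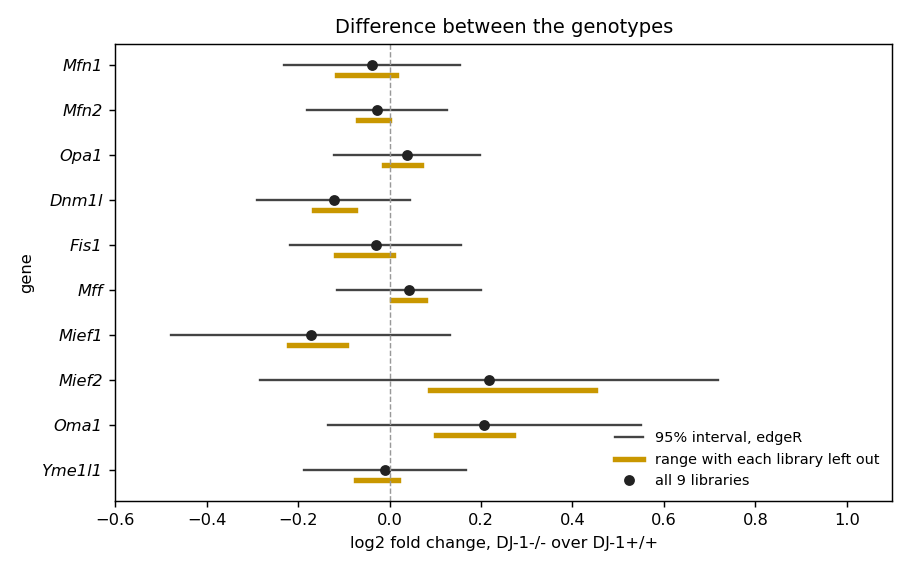
Log2 fold change of each of the 10 genes, DJ-1-/- over DJ-1+/+ (horizontal axis), from the edgeR fit over all genes, with genes in rows by role. Points are estimates, thin dark bars are 95% intervals, and thick bars below them span the estimates with each library left out in turn. Every interval crosses 0, and those of Mief1, Mief2 and Oma1, the 3 genes with the fewest counts, are the widest.

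The proteases cut Opa1 at neighbouring sites. Oma1 (ENSMUSG00000035069, plus strand, chr4:103313812-103371868) is the zinc metalloprotease that is switched on when the inner membrane loses its potential, and it lies 47.5 Mb from Park7 on chromosome 4. It had 28, 23, 31 and 33 counts in DJ-1+/+ (33.3, 26.1, 36.1 and 37.2 cpm) and 38, 41, 37, 38 and 40 counts in DJ-1-/- libraries (38.0, 37.3, 38.2, 39.3 and 39.0 cpm). All 5 DJ-1-/- mice lay above all 4 DJ-1+/+ mice, but the edges of the groups were 37.24 and 37.34 cpm, a gap far smaller than 1 count. The mean was 33.2 ± 5.0 cpm (SD, n = 4) against 38.4 ± 0.77 cpm (SD, n = 5). The exact permutation test gave p = 0.0159, the smallest that 126 splits of 4 against 5 allow, and its adjusted p over all genes tested was 1.0. Oma1 was the 1 member of 10 with separate cpm ranges in the genotypes, beside 1.25% of all genes tested, and 1 of 10 with an exact permutation p under 0.05, beside 3.67%. The edgeR fit, which takes the counting error into account, gave a log2 fold change of 0.21 (SE 0.16, 95% interval -0.14 to 0.55) with p = 0.217, in contrast to the exact permutation test.

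The DJ-1-/- spread of Oma1 was narrower than counting error. The SD of its 5 DJ-1-/- counts was 1.64, whereas independent counts with their mean of 38.8 would have an SD of 6.23, and 0.0451% of the genes with a mean of 3 to 300 counts varied as little in DJ-1-/- mice, relative to counting error. With library sizes scaled by the trimmed mean of M-values (TMM) the Oma1 groups overlapped, and the exact permutation p was 0.0317. DJ-1+/+ replicate 2, the lowest library, carried much of the difference, which was 5.18 cpm with it and 2.84 cpm without it. Among the libraries with Xist counts the 2 DJ-1+/+ values were 26.1 and 36.1 cpm and the 4 DJ-1-/- values 37.3 to 39.3 cpm.

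Yme1l1 (ENSMUSG00000026775, plus strand, chr2:23156369-23199260) encodes the i-AAA protease of the inner membrane, which processes Opa1 constitutively. It had 105, 112, 107 and 92 counts in DJ-1+/+ (125, 127, 124 and 104 cpm) and 109, 125, 119, 123 and 127 counts in DJ-1-/- libraries (109, 114, 123, 127 and 124 cpm). DJ-1+/+ replicate 4 was the lowest of all 9, and DJ-1+/+ replicate 2 was the highest, just above DJ-1-/- replicate 4. Means were 120 ± 10.9 cpm (SD, n = 4) and 119 ± 7.5 cpm (SD, n = 5), the closest pair of the 10 genes, with a log2 fold change of -0.01 (SE 0.08, 95% interval -0.19 to 0.17, edgeR p = 0.909, exact permutation p = 0.937).

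The balance of the arms was put as the summed counts of Mfn1, Mfn2 and Opa1 over those of Dnm1l, Fis1, Mff, Mief1 and Mief2, a ratio that does not depend on library size. In DJ-1+/+ replicates 1 to 4 it was 0.783, 0.749, 0.800 and 0.775, and in DJ-1-/- replicates 1 to 5 it was 0.786, 0.822, 0.816, 0.760 and 0.779. The genotypes overlapped over most of their range. On the log2 scale the means were -0.37 ± 0.04 (SD, n = 4) and -0.34 ± 0.05 (SD, n = 5), a difference of 0.03. That was smaller than the SD between single mice in either genotype, which is not the error of a difference of means. A value of this kind over chosen genes was given no test. The sums behind it were 391 ± 13.7 cpm (wild type) and 390 ± 11.4 cpm (knockout) for the fusion genes, and 503 ± 9.1 cpm and 492 ± 30.2 cpm for the fission genes.

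Ratios within the arms were computed after the gene values had been seen and are descriptions. Mfn2 exceeded Mfn1 in all 9 libraries, by 1.16 to 1.67 times, with no shift between DJ-1+/+ (mean log2 ratio 0.42 ± 0.23) and DJ-1-/- mice (0.43 ± 0.12). Mief1 exceeded Mief2 in all 9 libraries as well, by 1.07 to 2.5 times, with a mean log2 ratio of 0.84 ± 0.53 in DJ-1+/+ and 0.44 ± 0.31 in DJ-1-/- mice. Yme1l1 was 2.79 to 4.87 times Oma1, and the DJ-1-/- ratios (2.87 to 3.24) lay inside the DJ-1+/+ range. Dnm1l over the sum of its 4 receptors was 0.401 to 0.415 in wild-type libraries and 0.335 to 0.399 in knockouts. These groups did not overlap, though their edges were close (0.401 against 0.399). The difference in mean log2 ratio was -0.13. The SE from counting alone was 0.15 in a single library (median). A difference of means over 4 and 5 libraries has a smaller SE, which was not computed. The SD between mice was 0.02 in DJ-1+/+, below that single-library counting error, and 0.10 in DJ-1-/- mice. The share over all genes was not computed for a ratio of this kind. Over single pairs of the 10 genes, 4 of 45 ratios did not overlap between the genotypes, beside 1.12% of the pairs among all genes with a count in every library.

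**Figure D3:**
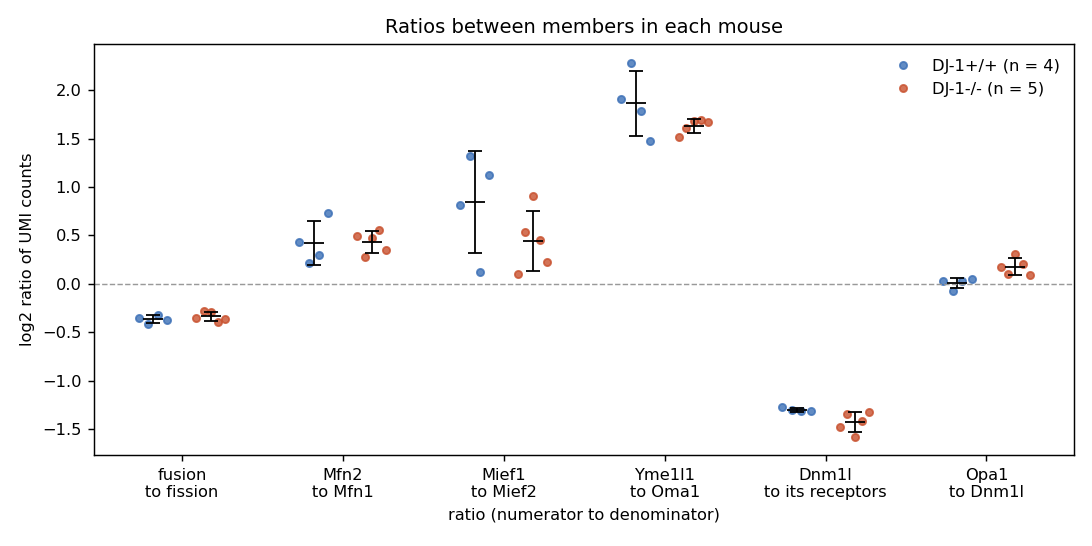
Log2 ratios of UMI counts in each library (vertical axis) for fusion over fission genes, Mfn2 over Mfn1, Mief1 over Mief2, Yme1l1 over Oma1, Dnm1l over its receptors and Opa1 over Dnm1l (horizontal axis), in 4 DJ-1+/+ and 5 DJ-1-/- mice. Points are single mice, lines the mean and bars the SD. The genotypes overlap for fusion over fission (difference of means 0.03). The ratio of Dnm1l to its receptors does not overlap, with DJ-1+/+ values from -1.317 to -1.27 and a highest DJ-1-/- value of -1.326. That of Opa1 to Dnm1l does not overlap either. The ratios other than fusion over fission were computed after the gene values had been seen.

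The spread of the 10 genes between mice of one genotype was set beside counting error. The index used was the variance of the counts around the share each library size predicts, divided by the variance of independent counts. For independent counts its median is 0.789 over 4 libraries and 0.839 over 5, and it lies below 1 for 60.8% and 59.4% of genes. It was below 1 for 8 of 10 members in DJ-1+/+ and for 8 of 10 in DJ-1-/- mice, beside 45.8% and 49.6% of the 15531 genes with a mean of 3 to 300 counts over the 9 libraries.

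In DJ-1+/+ mice the index was 0.051 for Dnm1l, 0.14 for Fis1, 0.15 for Opa1, 0.26 for Mff and 0.34 for Mfn2, and above 1 for Mfn1 (1.28) and Mief2 (2.39). The order was not the same in DJ-1-/- mice. There Oma1 was lowest at 0.016, Mfn1 and Mfn2 were at 0.24, Dnm1l was at 0.96, and Mief2 (1.77) and Fis1 (2.06) stood above 1.

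Of the 10 members 6 had a mean of 100 to 150 counts over the 9 libraries, where 2442 genes lay (13.5% of those tested). The median index of these genes was 0.786 in DJ-1+/+ and 0.829 in DJ-1-/- mice, close to that of counting alone, and 59.9% and 60.4% lay below 1. The medians were 1.25 and 1.16 for genes of 10 to 20 counts and 1.51 and 1.25 for those of 200 to 300. The median ratio of raw counts, DJ-1-/- to DJ-1+/+, was 1.15 in the 100 to 150 range, 1.21 at 10 to 20 counts, 1.19 at 150 to 200 and 1.18 at 200 to 300, beside 1.17 for the library totals. The part of this dip in the fold changes of the 6 genes was not tested.

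**Figure D4:**
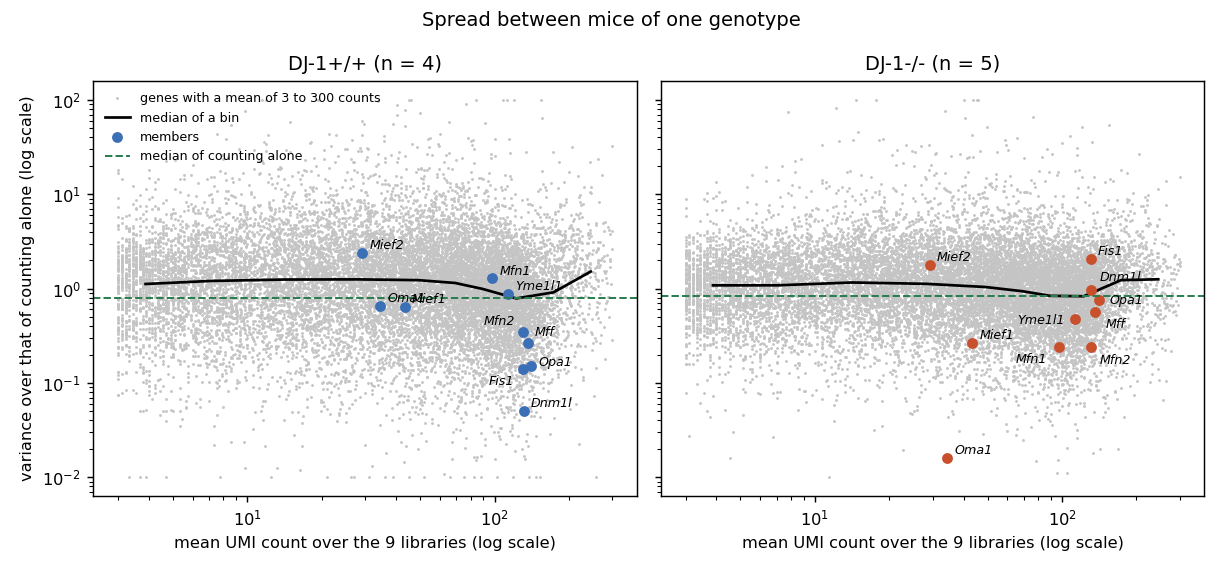
Variance of the UMI counts of each gene between mice of one genotype, divided by the variance of counting alone (vertical axis, log scale), against its mean count over the 9 libraries (horizontal axis, log scale), in DJ-1+/+ (left) and DJ-1-/- mice (right). Grey points are genes with a mean of 3 to 300 counts, drawn at the edge where they lie outside the axis, the black line joins the medians of count bins, coloured points are the 10 fusion and fission genes, and the dashed line is the median of counting alone (0.789 and 0.839). The black line meets the dashed line at 100 to 150 counts, where 6 of the 10 genes lie.

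Overlapping genes held almost no counts. Exons of Dnm1l, Mff and Mief1 overlap another annotated gene (Gm49521, C430014B12Rik and AC140267.1), none of them in the last 500 bases of the member, and those 3 genes had 0, 1 and 0 counts over all libraries. Within the last 500 bases of the annotated transcripts, 5.96% of the 50-base words of Dnm1l also occur in Gm13719, and no word of the other 9 genes occurs in another gene. The strand setting of the counting is not given in the sources used here.

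No other listed gene of mitochondrial shape, transport or mass passed an adjusted p under 0.05 in edgeR, and few passed an unadjusted one. Of 18 genes for cristae shape and Opa1 partners, such as the MICOS subunit Immt and the prohibitins Phb and Phb2, 17 were tested (1 symbol, 2010107E04Rik, was not matched) and 0 passed an unadjusted p under 0.05, with a median log2 fold change of -0.01. The extremes were Apool, a cardiolipin-binding MICOS subunit, at -0.20 (SE 0.34), and Afg3l2, an m-AAA protease subunit, at 0.21 (SE 0.13). Of 6 genes for mitochondrial transport along microtubules, 0 passed, with values from -0.14 (SE 0.09) for Rhot2, a Miro GTPase, to 0.16 (SE 0.16) for Armcx3.

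Among 21 other regulators of fusion and fission 1 passed an unadjusted p under 0.05, upward, where 1.55% of all genes did so. It was Gdap1, an outer membrane protein of neurons mutated in Charcot-Marie-Tooth neuropathy, which averaged 173 ± 13.0 cpm (SD, n = 4) in wild-type mice against 195 ± 8.7 cpm (SD, n = 5) in knockouts. The ranges were 157 to 188 and 181 to 202 cpm, so they overlapped, and the log2 fold change of 0.17 (SE 0.07, edgeR p = 0.0307, adjusted p = 1.0, exact permutation p = 0.0317) did not pass over all genes. The list ran from -0.24 (SE 0.24) for the SUMO protease Senp3 to 0.23 (SE 0.49) for the outer membrane phospholipase Pld6, which had under 11 cpm in every library.

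Of 17 genes that mark mitochondrial mass 1 passed an unadjusted p under 0.05, downward, where 1.27% of all genes did so. Tomm20, a receptor of the outer membrane import pore, had 139 to 152 cpm in wild-type mice and 114 to 137 cpm in knockouts, with no overlap (log2 fold change -0.19, SE 0.08, edgeR p = 0.0248, adjusted p = 1.0, exact permutation p = 0.0159). The highest of that list was the pore subunit Tomm40 at 0.10 (SE 0.14). The summed level of the 17 genes was 2378 ± 83.0 cpm in wild-type mice and 2330 ± 79.99 cpm in knockouts, with overlapping ranges.

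**Figure D5:**
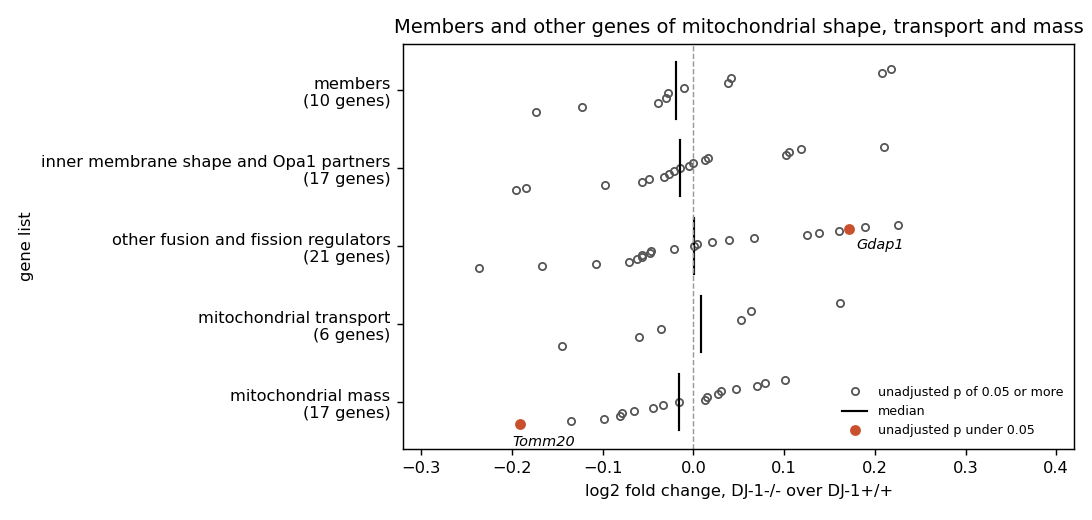
Log2 fold change, DJ-1-/- over DJ-1+/+ (horizontal axis), of each tested gene in the 10 members and in 4 further lists (17 genes for inner membrane shape, 21 other regulators, 6 transport genes and 17 mitochondrial mass genes). Each point is 1 gene, filled where its unadjusted edgeR p is under 0.05, and the black vertical bar is the median of the list. Medians lie between -0.02 and 0.01, and Gdap1 and Tomm20 are the 2 filled points.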

How the data were processed

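RNA from midbrain of 4 DJ-1+/+ and 5 DJ-1-/- mice was sequenced as 3' tags, and genotypes were taken from the sample labels. The authors deposited 1 table of UMI counts per gene for each mouse, as whole numbers without normalization. Their processing notes name fastp 0.20.0, STAR 2.7.3a, featureCounts 2.0.0, UMI-tools 1.0.0 and the build GRCm38. Collapsing by UMI removes PCR copies, while molecules that share a UMI at one position are merged, so high counts can be understated. Gene names and positions came from GENCODE M21, which held 26576 of the 26602 genes. A gene needed 10 counts or more, summed over all 9 libraries, to be fitted in edgeR 4.0.16 (quasi-likelihood, TMM, genotype as the only term, two-sided, Benjamini-Hochberg over 18127 genes) in R 4.3.3. The cpm of each gene, from library totals, was compared by an exact two-sided permutation test over 126 splits (smallest p 0.0159). Intervals are 95% intervals of the fit, and the limit from a count of 0 (3 counts) covers counting error only. The fit was tested on simulated data. Alternatives were other size factors, filters, DESeq2 1.42.0, a term for Xist, a replicate block, thinned counts and libraries left out. A fit without edgeR's Poisson bound was added after the data had been seen. The members and lists were chosen with earlier results of these data known. For the other lists, genes with an unadjusted p under 0.05 and both extremes are named. Of marker lists sums are given, and for some lists counts in each direction. Of those sums, astrocyte, oligodendrocyte, microglia and endothelial markers had overlapping ranges between the genotypes (means in cpm of 1574 and 1543, 2448 and 2392, 604 and 612, and 469 and 455 in DJ-1+/+ and DJ-1-/-).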

Additional observations from a re-analysis of the deposited data

Results flagged for a closer look

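In 22 groups tested (the 10 genes in cpm and the fusion to fission ratio, each in both genotypes), 2 held a library whose distance from its nearest neighbour was large for the range of its group (Dixon's test at 95%), where chance gives about 1 in 20, or 1.1 here. Both were DJ-1+/+ replicate 4, the library with the highest sum of choroid plexus markers (804 cpm). Dnm1l was at 141 cpm there and between 146.6 and 147.3 cpm in the other 3 DJ-1+/+ mice, a span of under 1 cpm. Yme1l1 was at 104 cpm there and between 124 and 127 cpm in the others. The SD of the DJ-1+/+ counts was 2.16 for Dnm1l, where counting alone gives 11.2. For Yme1l1 it was 8.52, where counting alone gives 10.2. The part of choroid plexus tissue in these values was not tested.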

How the results depend on the processing

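Over 20 other settings of the fit, the number of members past 0.05 was 0, adjusted or not, and the smallest unadjusted p was 0.0658. Of 200 log2 fold changes 188 had the sign of the reported value and 12 the opposite one, the largest of them 0.0204 in size. Mfn2 turned to 0.0026 with library size taken from the mitochondrial mass list and to 0.011 without DJ-1+/+ replicates 1 and 4, and Yme1l1 to 0.0204 with that list and, with no filter on low counts, to 0.00037. Leaving out 1 library at a time moved the log2 fold change of Mfn1 between -0.115 and 0.0131, Opa1 between -0.0131 and 0.0685, Fis1 between -0.117 and 0.00776 and Yme1l1 between -0.0737 and 0.0179. The other 6 kept their sign, in ranges of -0.0685 to -0.00115 for Mfn2, -0.165 to -0.0766 for Dnm1l, 0.00526 to 0.0773 for Mff, -0.22 to -0.0956 for Mief1, 0.0873 to 0.45 for Mief2 and 0.102 to 0.27 for Oma1. The cpm differences ran from -8.58 to 0.856 for Mfn1, -0.0938 to 6.92 for Opa1, -9.62 to 0.755 for Fis1 and -6.18 to 1.79 for Yme1l1. The difference in the fusion to fission log2 ratio was 0.12 with Dnm1l alone as the fission gene, in place of 0.03, and 0.01 to 0.04 with 1 library left out, and the cause was not tested. Over all genes, 511 of 18127 tested passed an unadjusted p under 0.05, beside 235 of 18127 in DESeq2. The count was 802 of 26602 (36 adjusted) with no filter and 338 of 12837 with edgeR's own stricter filter. It was 338 of 17809 without DJ-1-/- replicate 2. Of the 511, 281 were higher in DJ-1-/- mice and 230 lower, beside 372 and 149 with the mitochondrial mass list as library size and 222 and 293 with thinned counts. Same-numbered libraries did not deviate together (r from -0.10 to 0.18, and 1 of 4 correlated best with its own number), and the labels do not pair the animals. With the replicate number as a block, 0 members and 8 genes in all passed after adjustment, and 569 genes before it. At 18 to 42 counts in each library, and with a spread above counting error, the Mief2 interval reached a fold of 1.64.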

Other observations

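Ratios between pairs of members cancel the size of the library. Of the 45 pairs the 4 whose ratios did not overlap between the genotypes were 8.89%, beside 1.12% of the 120024271 pairs among 15494 genes with a count in every library. The pairs share genes, were looked at after the values were known, and were given no test. Of the 4 pairs 3 held Oma1, with Mfn2, Dnm1l or Mief1 as the partner. The mean log2 ratio of Dnm1l to Oma1 was 2.14 in DJ-1+/+ and 1.80 in DJ-1-/- mice, that of Mfn2 to Oma1 was 2.08 and 1.84, and that of Mief1 to Oma1 was 0.57 and 0.18. The fourth pair was Opa1 to Dnm1l, whose ratio was 0.953 to 1.03 in DJ-1+/+ and 1.07 to 1.24 in DJ-1-/- libraries. The difference in its mean log2 ratio was 0.16. The SE from counting alone was 0.18 in a single library (median), and the smaller SE of a difference of means was not computed. Opa1 counts exceeded those of Dnm1l in 3 of 4 DJ-1+/+ and in 5 of 5 DJ-1-/- mice. The edgeR tests of Opa1, Dnm1l and Oma1 alone gave adjusted p-values of 1.0. Oma1 in DJ-1-/- mice and Dnm1l in DJ-1+/+ mice spread less than counting error. The part of these narrow spreads in the pair ratios was not tested.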
